A study of Mus musculus with 12 samples.

Results

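This account covers the histone H3 lysine 27 acetylation (H3K27ac) peak lists of mouse embryonic stem (ES) cells given GW3965 or vehicle. The control list held 21418 peaks and the GW3965 list 17759, together 39177 of the 76731 peaks in the 12 lists of the series. They were chosen by their labels alone. Peaks of the 2 lists that overlapped by at least 1 bp were merged, which gave 23905 regions. Both groups were wild type E14 ES cells, an established mouse line, grown without feeder cells in medium with leukemia inhibitory factor. The control group had vehicle (dimethylsulfoxide) and the treated group had GW3965 at 1 µM for 24 h. GW3965 is a synthetic agonist of the liver X receptors (LXR). Lists from cells given LG268, an agonist of the retinoid X receptor (RXR), or all-trans retinoic acid (RA), each at 1 µM for 24 h, were set beside them, as were the RXR peak lists of control and GW3965 cells. Each group was 1 library from a culture of 1 line, so no difference between conditions had a replicate check and none was tested. The intervals below are exact Clopper-Pearson 95% intervals and cover counting error only.

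LXRs are nuclear receptors that bind oxysterols and pair with RXR on DNA. They are known for switching on genes that move cholesterol out of cells, such as the transporters Abca1 and Abcg1, and genes of fatty acid synthesis, either directly or through Srebf1, which encodes the transcription factor SREBP1. H3K27ac is placed by the coactivators Ep300 and Crebbp and marks active promoters and enhancers. Acetylated nucleosomes usually lie on the sides of a bound site rather than over it.

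The sequences below carry the LXR response element at start sites where H3K27ac could be read. The element was searched on both strands as GGTTACT, any 2 bases and CGGTCA, a spelling chosen after the matches at Abca1, Fasn and Srebf1 had been seen. Among 32851 RefSeq promoter windows of GRCm38.p6, each running from 250 bases before to 50 after a start site, 3 held it, a share of 0.00913%. Each window is printed 5′ to 3′ on the strand of its gene, with the element in capitals. All 3 genes lie on the minus strand and the element reads in the spelled direction on the strand opposite the gene.
Abca1: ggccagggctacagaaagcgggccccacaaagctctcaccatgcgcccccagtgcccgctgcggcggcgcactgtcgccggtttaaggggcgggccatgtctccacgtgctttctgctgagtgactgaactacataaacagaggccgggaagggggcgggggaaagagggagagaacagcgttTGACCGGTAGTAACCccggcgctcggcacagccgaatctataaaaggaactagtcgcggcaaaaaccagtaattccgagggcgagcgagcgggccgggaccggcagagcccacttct
Fasn: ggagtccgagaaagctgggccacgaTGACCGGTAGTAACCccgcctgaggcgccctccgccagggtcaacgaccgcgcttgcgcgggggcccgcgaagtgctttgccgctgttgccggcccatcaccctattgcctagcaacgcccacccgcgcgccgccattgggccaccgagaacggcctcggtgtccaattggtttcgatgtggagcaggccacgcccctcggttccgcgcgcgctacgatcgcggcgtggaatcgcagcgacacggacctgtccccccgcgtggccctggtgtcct
Srebf1: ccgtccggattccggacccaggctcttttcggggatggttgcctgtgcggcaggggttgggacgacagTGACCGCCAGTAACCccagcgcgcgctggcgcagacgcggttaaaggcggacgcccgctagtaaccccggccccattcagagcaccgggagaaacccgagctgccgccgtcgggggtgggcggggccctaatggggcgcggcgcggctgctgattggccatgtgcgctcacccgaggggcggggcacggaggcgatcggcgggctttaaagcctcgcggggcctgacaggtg
The windows lie at chr4:53159846-53160145, chr11:120824498-120824797 and chr11:60210422-60210721. The elements lie at chr4:53159948-53159962, at -67 from the Abca1 start (negative positions are upstream), at chr11:120824758-120824772, at -225 from the Fasn start, and at chr11:60210639-60210653, at -182 from an internal Srebf1 start. The internal start belongs to the shorter Srebf1 transcript and sits in intron 1 of the longer one. All 3 elements lay inside an RXR peak in control cells and inside one in GW3965 cells.

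At Abca1, which encodes the transporter that loads cholesterol onto apolipoprotein A-I, the H3K27ac region chr4:53158877-53159957 covered the start site and the start of intron 1. Its peak had a deposited score of 10.9 in control cells and 28.0 with GW3965. The control peak ran from 0.03 to 1.018 kb of the start, all downstream, and the GW3965 peak from -0.062 to 0.945 kb. The scale of the score between libraries is not stated, so regions called in both lists were ranked within each list. A percentile of 100 was the highest score, and a region was called risen or fallen where its percentile moved by over 25 points. Of the 14216 shared regions, 8.38% were risen and 8.58% fallen by this rule, so a move of this size was common in either direction. The Abca1 region rose by 46.1 points. The control peak ended short of the element, while the GW3965 peak reached into it. A higher score from more cells with the mark and from more of the mark per cell cannot be told apart in these bulk lists.

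At Srebf1 the H3K27ac regions stood on the sides of the internal start. The region chr11:60210600-60211418, 9558 bp into the gene, scored 9.59 in control cells and 18.3 with GW3965 and rose by 40.2 points. Its neighbour chr11:60209483-60210343 scored 11.6 and 22.2 and rose by 36.7 points. The promoter of the longer transcript stayed within the threshold, with scores of 27.4 and 18.5 and a rank change of -8.05. That is less than the median absolute change of 10.4 points over all shared regions. Any link of the element or the RXR peak to the rise at the internal start was not tested. Unlike at Abca1, the control peak here covered the element and no GW3965 peak did.

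Fasn encodes fatty acid synthase. The peak over its element scored 34.4 in control cells, where it ended short of the start site, and 21.7 with GW3965, where it covered the start. The rank change was -8.69 points. The region in intron 1, 857 bp from the start, scored 17.2 and 23.5 and moved by 18.7 points. With peaks within 1 kb joined and their scores summed, both became 1 region with a change of 2.501 points, so the direction over the element turned. A peak centred at -954 bp was called with GW3965 only, with a score of 13.7. None of the shared Fasn regions passed the threshold.

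The stearoyl-CoA desaturase genes, which introduce the double bond of oleic acid, lie in a cluster on chromosome 19. An intergenic region 18904 bp from the Scd1 start, chr19:44388032-44389185, scored 7.98 in control cells and 30.0 with GW3965. Its rank rose by 63.4 points, from percentile 29.6 to 93.0. Control cells had 2 peaks here, of 7.98 and 7.26, and with their scores summed the rise was 31.1 points, or 37.3 with peaks within 1 kb joined. Between Scd3 and Scd2, the region chr19:44247411-44248160 scored 9.30 and 25.2 and rose by 51.8 points, and on the other side of the RXR peak there a region at chr19:44248639-44249293 was called with GW3965 only, with a score of 9.37. The RXR site nearest the Scd2 start, at -9382 bp, showed the same layout. One of its H3K27ac neighbours, at -9948 bp, was called with GW3965 only (score 11.4), and the other, at -8838 bp, scored 10.9 and 14.6 and moved by 23.4 points, just under the threshold. The Scd1 promoter region at -652 bp scored 5.67 and 8.15 and rose by 25.01 points, just over it.

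Abcg1 encodes a transporter that passes cholesterol to high-density lipoprotein. Its intron 2 held an RXR peak 15806 bp from the start. Around it 3 H3K27ac regions, at chr17:31072286-31072557, chr17:31073592-31073890 and chr17:31073950-31074381, were called with GW3965 only, with scores of 3.96, 2.45 and 4.75. No control peak lay within 1 kb of any of them. These are low scores, under the list median of 8.17. The Abcg1 promoter was called in both lists, with scores of 4.50 and 4.64.

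**Figure D1:**
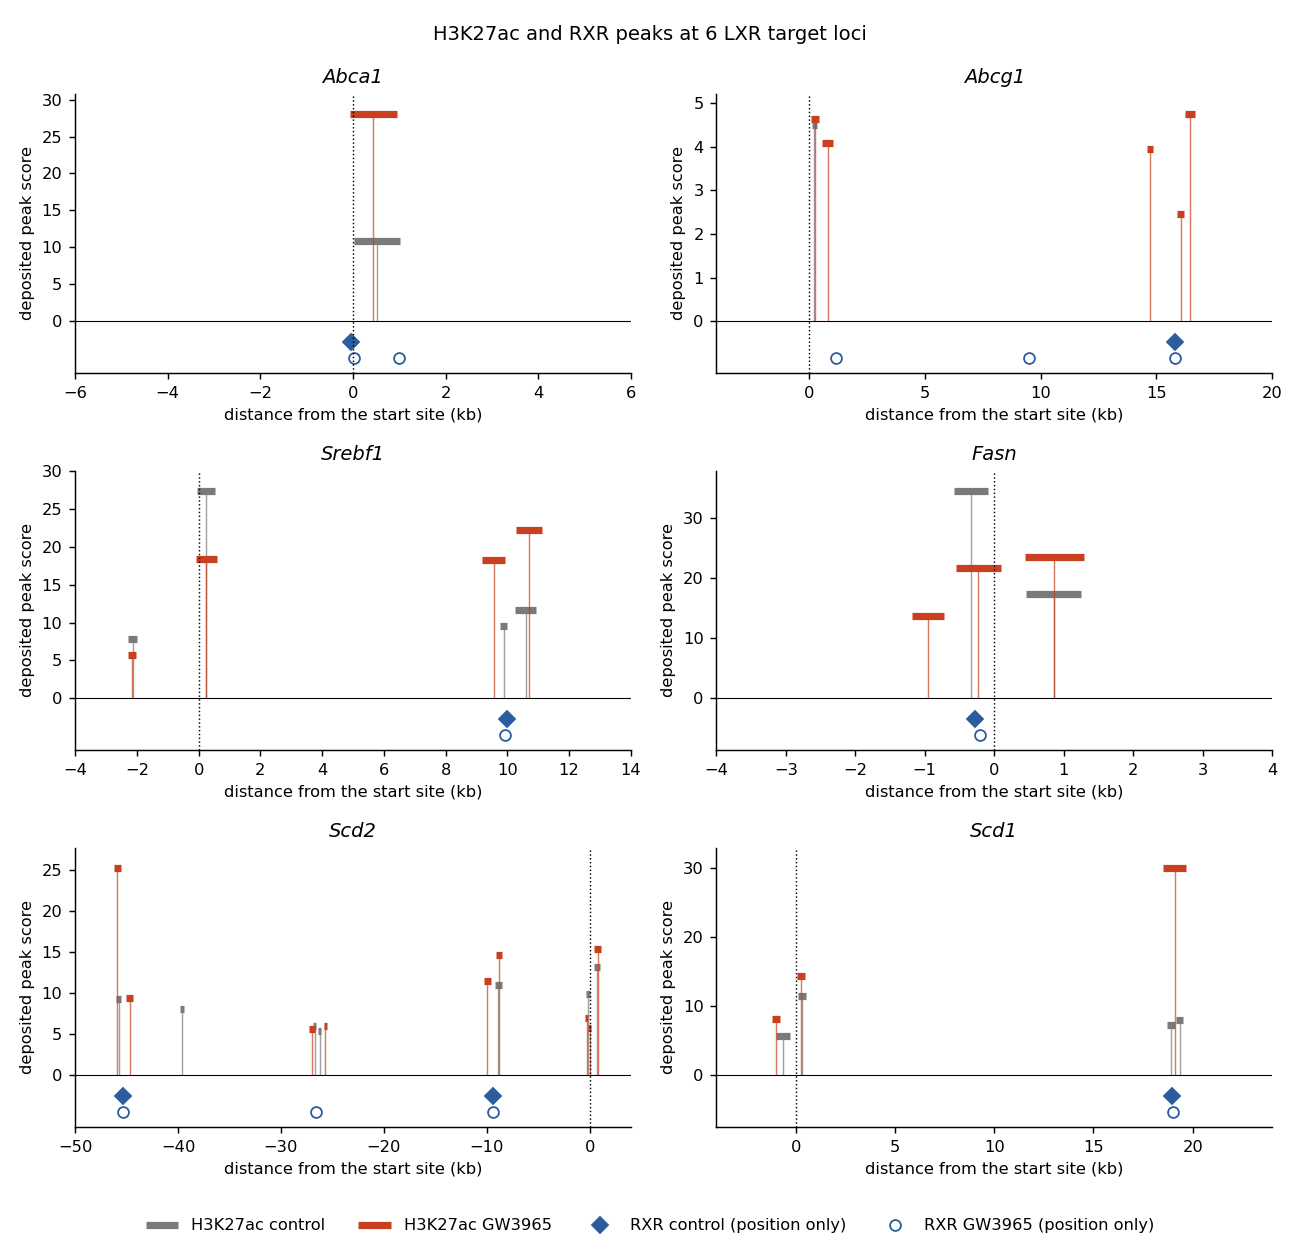
Deposited H3K27ac peak scores (y axis, no unit) against distance from the annotated start site in kb (x axis, dotted line at 0) at 6 loci. Bars span single peaks of control (grey) and GW3965 (red) cells, and blue symbols give RXR peak positions without a score. Beside the RXR sites of Abca1, Srebf1, Scd1 and the site between Scd3 and Scd2 the red bars stand above the grey ones, while over the Fasn element and at the Srebf1 main start site the grey bar is higher.

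The RXR lists come from other libraries, and H3K27ac regions were next counted around all RXR sites. The sterol and lipid lists were chosen with earlier results of these data known, RXR sites at LXR targets included. Sites at their genes are therefore no independent check, and Scd1, Scd2 and Scd3 lie in 1 cluster. Outside repeats, 152 RXR sites were called in both the control and the GW3965 RXR list, and 102 of them had an H3K27ac region within 1 kb. Of the 9 sites nearest to genes of the sterol and lipid lists, 8 had such a region. At 7 of these 8 (87.5%, interval 47.3% to 99.7%), at least 1 neighbouring region was risen or called with GW3965 only. These 7 were Abca1, Abcg1, Fasn, Scd1, Scd2, Scd3 and Srebf1, and none of their neighbouring regions was fallen or called in control cells only. At Fasn and Scd2 the only gain was a GW3965-only region with a control peak within 1 kb of it, and no shared region there was risen. The last, at -6681 bp from the start of the elongase gene Elovl5, had 1 shared region with scores of 23.4 and 17.7 and a rank change of -4.08. At the 94 sites of other genes, 16 had gains only (17.02%, interval 10.1% to 26.2%), 31 had losses only (33.0%, 23.6% to 43.4%), 2 had both and 45 had neither. These shares differed by location: of 52 distal sites at other genes 13 had gains only (25%, 14.03% to 38.9%) and 14 losses only (26.9%), and of 42 promoter sites 3 had gains only (7.14%) and 17 losses only (40.5%). The control H3K27ac list is the longer one, and over all merged regions 28.0% were control only and 12.6% GW3965 only. The counts at RXR sites were not repeated with lists of equal length.

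Among the 152 RXR sites, the 6 highest scores in control cells were those of Scd3, Scd2, Abcg1, Scd1, Fasn and Srebf1, in that order, and each had an H3K27ac gain and no loss within 1 kb by this count. At Fasn the gain was only the GW3965-only region at -954 bp. The region over the Fasn element changed by -8.69 points, and by 2.501 with peaks joined. Abca1 was in place 34. Cpt1a, the carnitine palmitoyltransferase that brings fatty acids into mitochondria, was in place 12. Its intron 1 region chr19:3324880-3325580 scored 5.93 in control cells and 14.5 with GW3965 and rose by 52.7 points, or by 28.6 with peaks joined. In place 9 was a site annotated to 4930522O17Rik that lies 58.4 kb upstream of the Abca1 start. The H3K27ac region over it, chr4:53217147-53218805, scored 5.75 and 9.48 and rose by 32.6 points, and a neighbour 483 bp away was called with GW3965 only (score 5.51). Neither was called with LG268 or RA.

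**Figure D2:**
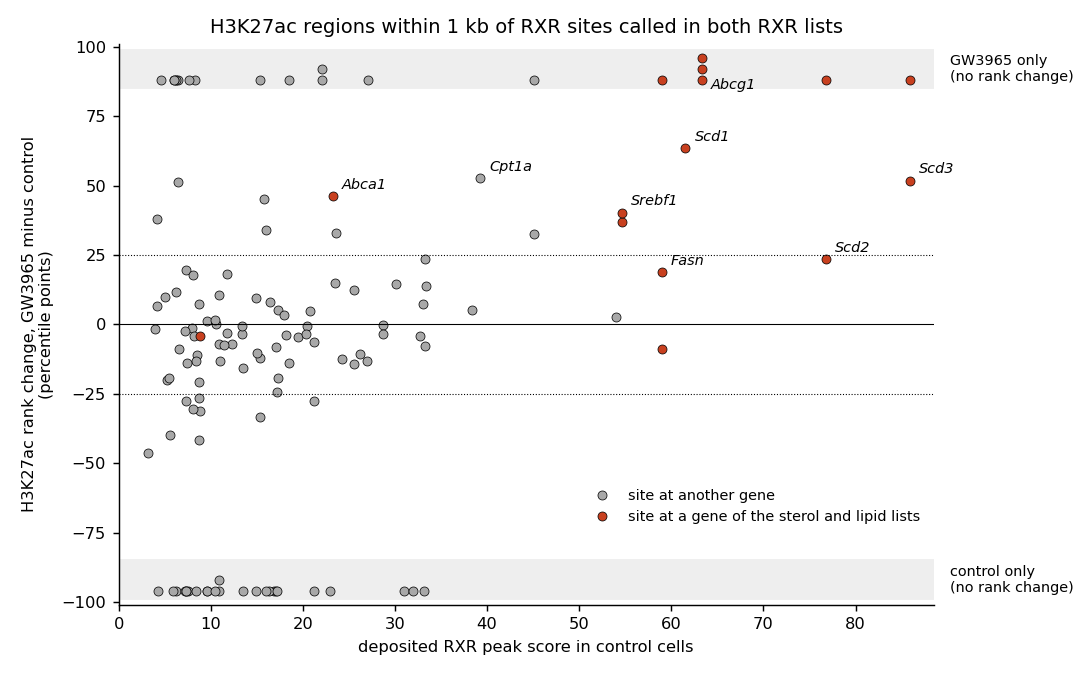
Rank change of H3K27ac score, GW3965 minus control in percentile points (y axis), for each region within 1 kb of an RXR site, against the deposited RXR score in control cells (x axis). Grey bands hold regions called in 1 list only, and dotted lines mark 25 points. To the right of an RXR score of 50, the points of the sterol and lipid genes (red) lie above 0 or in the upper band except for the region over the Fasn element at -8.69.

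Among distal shared regions outside repeats, 27 of 187 with an RXR peak of either list within 1 kb were risen (14.4%, interval 9.74% to 20.3%) and 10 were fallen. Without an RXR peak, 308 of 3272 were risen (9.41%, 8.43% to 10.5%) and 239 fallen (7.30%). The median change was 1.21 points with an RXR peak and 1.20 without. With an RXR peak in both lists, the median change was -0.07 points, 9 of 41 were risen (22.0%, 10.6% to 37.6%) and 2 fallen. These 9 were at Scd1, Cpt1a, Scd3, Dock2, Srebf1 (2 regions), Sec61g, Tbc1d14 and 4930522O17Rik, so 4 of the 9 belonged to the lipogenesis list. The 2 fallen ones were at Socs3, the feedback inhibitor of the leukemia inhibitory factor pathway (11.7 and 4.10, -41.6 points), and Foxp1 (10.4 and 5.03, -27.6 points). At promoters the share risen was 7.63% with an RXR peak and 7.95% without, and with an RXR peak in both lists 3 of 52 were risen (5.77%) and 8 fallen (15.4%).

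The sterol efflux, uptake and binding list held 20 genes, of which 11 had a region within 100 kb. At least 1 GW3965-only region lay at 5 of the 11, Abca1, Abcg1, Mylip, Npc1 and Lpl (45.5%), against 17.3% of all 12989 genes with a region. Shares above that background were also found in lists with no tie to sterols, with 6 of 12 endoderm genes (50%), 5 of 12 RA targets (41.7%) and 7 of 18 naive pluripotency genes (38.9%). Control-only regions lay at 4 of the 11, against 35.8% of all genes. Npc1, which exports cholesterol from lysosomes, had a promoter peak with GW3965 only, with a score of 10.1, and none in the other 3 H3K27ac lists. Mylip, a ubiquitin ligase gene known as an LXR target, had a shared promoter region with scores of 11.3 and 10.5 and a GW3965-only region 835 bp into the gene (score 6.37). Arl4c, a small GTPase gene, had 12.1 and 14.7 at its start, a change of 18.6 points, and a control-only promoter region at -263 bp with a score of 11.3 and an RXR peak of control cells over it. Apoe had only a control peak of 3.19. Only Abca1 was risen in this list, none of the 9 shared regions was fallen, and their median change was -1.62 against 0.06 over all shared regions.

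The LXR and SREBP1 lipogenesis list held 20 genes, and 15 had a region. Of their 27 shared regions 6 were risen (22.2%), at Srebf1, Scd1, Scd3 and Gpam, and none was fallen. Over all shared regions 8.38% were risen and 8.58% fallen. The list also had 8 GW3965-only regions, at 5 of the 15 genes (33.3%, against 17.3% of all genes). Its 7 control-only regions lay at 4 of the 15 (26.7%, against 35.8% of all genes). Their median change was 5.79 points. Gpam, which starts glycerolipid synthesis, had 2 neighbouring promoter regions that went opposite ways. One scored 20.5 and 10.4 (-23.7 points) and the other 10.1 and 14.3 (26.6 points). Lpcat3, an enzyme that places polyunsaturated chains in phospholipids, had promoter regions that moved by 11.6 and 16.9 points. Acly, Acacb, Fads1 and Fads2, which serve fatty acid synthesis and desaturation, had shared regions with changes between -17.9 and 5.61 points. Elovl6 had 17.1 and 18.9 at its main region and a change of 11.6 points.

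The cholesterol synthesis list, whose genes answer mainly to SREBP2, held 24 genes, 20 with a region. GW3965-only regions lay at 5 of the 20 (25%) and control-only regions at 6 (30%), against 17.3% and 35.8% of all genes. Of its 25 shared regions 1 was risen (4%) and 4 were fallen (16%), with a median change of -5.05 points. Over all shared regions 8.38% were risen and 8.58% were fallen. The risen one was at Fdps, farnesyl diphosphate synthase (4.44 and 8.77, 36.2 points). The fallen ones were at Pmvk (16.9 and 4.68, -55.1 points), Ebp (12.6 and 5.79, -31.0 points) and Srebf2 itself (15.5 and 6.94, -32.1 points, and 10.97 and 5.41, -26.7 points). Hmgcs1, which makes the HMG-CoA of this pathway, scored 29.8 and 25.7 (-0.51 points).

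The regions of these 3 lists were also split by RXR peaks. The lists were chosen with RXR sites at LXR targets known, so this split is no independent check. Over all distal shared regions outside repeats the median change was 1.21 points with an RXR peak and 1.20 without. At promoters it was -0.43 and -0.22. Over the 3 lists, 34 regions had an RXR peak within 1 kb. Of them 12 were called with GW3965 only and 3 in control cells only, and of 19 shared ones 6 were risen and none fallen, with a median of 16.9 points. Of the 68 regions without an RXR peak, 11 were called with GW3965 only and 15 in control cells only, and of 42 shared ones 2 were risen and 4 fallen, with a median of -4.12 points. Over all merged regions 12.6% were called with GW3965 only and 28.0% in control cells only.

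The values with the other ligands are given side by side, since all comparisons share the control library. Percentiles were taken again over the 9233 regions called in all 4 H3K27ac lists. The Abca1 region was at percentile 24.6 in control cells, 86.7 with GW3965, 15.4 with LG268 and 42.5 with RA. The Scd3 region was at 17.1, 82.7, 13.1 and 34.2 in the same order. The Srebf1 region at 10594 bp was at 28.1, 77.3, 24.6 and 8.54. At these 3 regions the GW3965 value was the highest of the 4. They are shown because they had risen with GW3965, so a GW3965 value above control follows from the choice. How many of all risen regions were also highest with GW3965 was not counted, so the values do not show that the rise is particular to this ligand or to these loci. The Scd1 distal region was not called with LG268 and scored 12.3 with RA, and the Abcg1 intron 2 regions were called with neither. Cpt1a differed: it was at 4.16 in control cells, 52.8 with GW3965, 62.6 with LG268 and 13.4 with RA. Gpam stood at 21.0, 52.0, 15.1 and, with RA, 89.8. Elovl5 was higher with LG268 (92.6) and RA (90.4) than in control (71.4) or GW3965 cells (65.2).

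**Figure D3:**
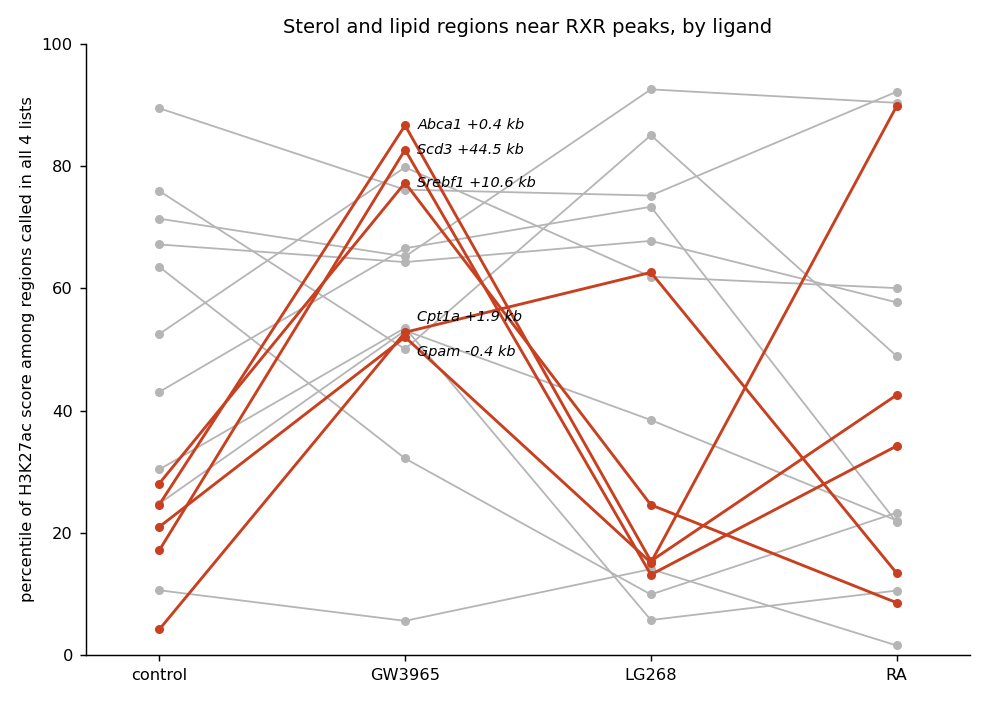
Percentile of H3K27ac score among the 9233 regions called in all 4 lists (y axis) in control, GW3965, LG268 and RA cells (x axis), 1 library each. Each line is a region within 1 kb of an RXR peak at a gene of the sterol and lipid lists or at Cpt1a, and red lines are those risen with GW3965. Abca1, Scd3 and Srebf1 peak at GW3965 with 86.7, 82.7 and 77.3. Red lines were chosen by their rise with GW3965, so a GW3965 value above control follows from the choice.

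The 2 lists as a whole overlapped widely. Of the merged regions 14216 were called in both, 3001 with GW3965 only (12.6%) and 6688 in control cells only (28.0%). Of control peaks 68.8% were found with GW3965 (interval 68.1% to 69.4%), and of GW3965 peaks 83.1% were found in the control (82.5% to 83.7%). The control list is the longer one. With both cut to equal length by score, the shares were 76.8% and 77.8%, and 3936 regions were then in the GW3965 list only and 4125 in the control list only.

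Strong peaks were nearly all shared. In the 2 highest score deciles 4267 of 4284 control peaks (99.6%) and 3551 of 3552 GW3965 peaks were found in the other list. In the lowest decile the control shares were 35.5% at promoters and 23.6% at distal sites, and the GW3965 shares were 65.1% and 41.3%. Regions of 1 list had low scores, with medians of 4.45 for GW3965 only and 4.90 for control only, and were narrow, with median widths of 277 and 270 bp against 564 bp for shared regions. A peak of the other list lay within 1 kb of 35.6% of the GW3965-only and 31.5% of the control-only regions.

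**Figure D4:**
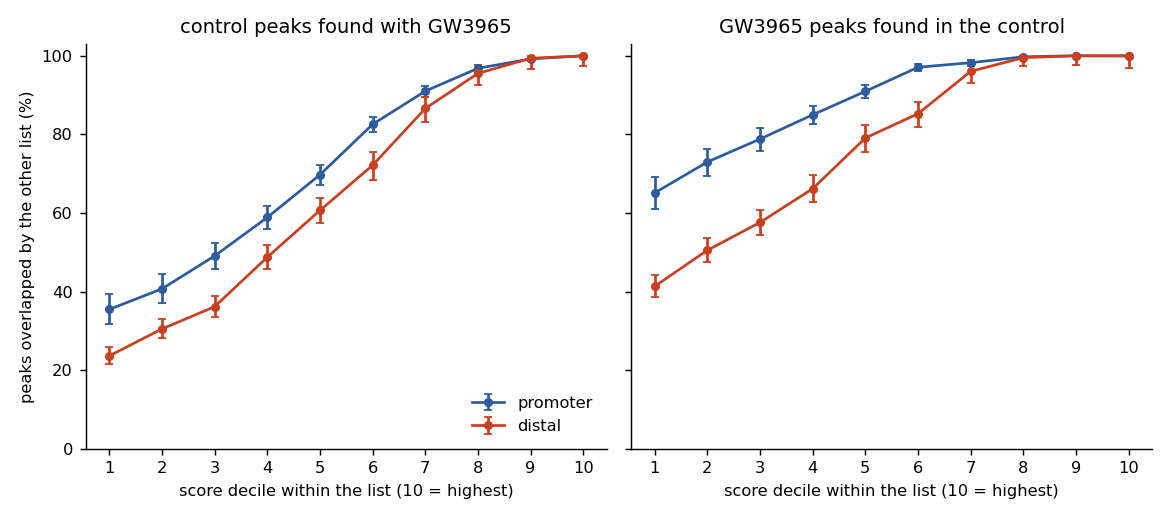
Share of peaks overlapped by the other list in percent (y axis) by score decile within the list (x axis), for promoter and distal peaks, with exact 95% intervals. At decile 10 both locations reach 100% in the control list, and at decile 1 the distal share is 23.6% there and 41.3% in the GW3965 list.

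Of shared regions 75.01% lay within 1 kb of a start site, against 29.6% of GW3965-only (interval 27.9% to 31.2%) and 38.9% of control-only regions (37.7% to 40.1%). GW3965-only regions were most often 10 to 100 kb from a start site (40.5%), as 33.7% of control-only and 12.9% of shared regions were. Distal GW3965-only regions were in introns in 38.5% of cases and intergenic in 57.3%. A CpG island outside promoter annotation held 3.26% of them, 6.31% of distal control-only and 19.5% of distal shared regions. The L1Md_T subfamily of LINE-1 elements held 19.4% (17.7% to 21.2%) of distal GW3965-only, 16.8% (15.7% to 18.01%) of control-only and 16.6% of shared regions. With repeats kept, an RXR peak of either list overlapped 48 distal GW3965-only regions (2.27%, 1.68% to 2.999%) and 51 distal control-only ones (1.25%, 0.93% to 1.64%), beside 3.80% of distal shared ones. RXR peaks of control cells overlapped 43 of the GW3965-only and 36 of the control-only ones, and those of GW3965 cells 21 and 26. Without repeats, over promoter and distal regions together, the shares were 1.26% of GW3965-only and 0.93% of control-only regions. Across autosomes the GW3965-only share ran from 10.5% to 14.3% and on chromosome X it was 15.5%. The control-only share was also higher on X, at 32.9% against 24.4% to 30.5% on autosomes.

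LG268 or RA cells also had 24.8% of the GW3965-only regions and 27.7% of the control-only ones, against 85.1% of the shared ones. At distal sites the shares were 21.0% (19.2% to 22.8%) and 20.5% (19.2% to 21.7%).

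Scores of shared regions correlated across regions with a Spearman rho of 0.80 over 14216 regions, as a description of 2 libraries. The median absolute rank change was 10.4 points, and the middle of the distribution ran from -10.3 to 10.5. Distal regions were risen in 9.74% (8.78% to 10.8%) and fallen in 7.21% (6.38% to 8.11%) of 3553 cases. Promoter regions were risen in 7.92% (7.42% to 8.45%) and fallen in 9.04% (8.50% to 9.601%) of 10663.

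Of the 10 distal regions with the greatest rises outside repeats, 3 were the Scd1, Scd3 and Cpt1a regions above, and those and Adam23 were the 4 with an RXR peak within 1 kb. At Adam23 the RXR peak was called in GW3965 cells only. Over all distal shared regions outside repeats, 187 had an RXR peak within 1 kb and 3272 had none. Adam23, a neuronal adhesion gene of the ADAM family, led with scores of 3.65 and 15.6 and a rise of 68.6 points at chr1:63441470-63442350. The others were near Map3k12, Sun5, Pccb, Mta3, Pole4 and AA619741, with rises of 51.0 to 57.4 points. All 10 stayed over 25 points when peaks within 1 kb were joined and their scores summed, with rises between 25.7 and 62.7. Mta3 encodes a subunit of the NuRD corepressor, and its intron 3 region scored 4.36 and 11.8.

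The greatest promoter rises were at Ppap2c, a lipid phosphatase gene (3.09 and 15.4, 70.0 points), Ndufaf4, an assembly factor of respiratory complex I (3.75 and 15.4, 67.7 points), Ube2s, Slc12a7, Sfmbt1, Aar2, Tex26, Vps33b, Nfyb and Cd46. None had an RXR peak within 1 kb, where over all promoter shared regions outside repeats 380 had one and 10242 did not. With peaks within 1 kb joined, 7 of the 10 stayed over the threshold, while Ube2s came to -0.93, Sfmbt1 to 5.52 and Tex26 to 6.93 points.

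Among the 10 greatest promoter falls were those at Actr3b, an Arp2/3 complex gene (28.8 and 4.73, -76.0 points), Rnf11, Spata5, Gnaq, Ipo8, Mink1, Pclo, Tspyl3 and Bub1b. Of the 10, 6 stayed under -25 points with peaks joined, Actr3b at -68.5. Of 1438 genes with at least 2 shared promoter regions, 34 (2.36%) had 1 risen and another fallen. The greatest distal falls were near Ywhaz, Klhl11, Mir17, Sesn2, Phf12, Cabp1, Trim8, N4bp2, Pramef12 and A830082K12Rik, and 6 of them stayed under -25 points with peaks joined. Of the others, Sesn2 (12.2), N4bp2 (7.96) and Phf12 (0.34) turned in sign and Ywhaz came to -0.51. The region at -1130 bp from Mir17, the gene of the miR-17 cluster, scored 16.2 and 3.83 and changed by -59.4 points, or by -47.8 with peaks joined.

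Regions of 1 list that lay over 1 kb from any peak of the other gave the next names. The highest GW3965-only promoter was that of 1110001J03Rik (score 26.6), which was also called with LG268 (13.96) and RA (18.2), so control cells alone lacked it among the 4 lists. Zfp820 (14), Alkbh6 (11.6), C430002E04Rik (10.5), Trmt1 (10.4), Mxd1 (10.2), Npc1 (10.1), Echdc3 (9.95), Ppp1r11 (9.91) and Gcdh (9.87) followed. Mxd1 encodes an antagonist of Myc. Npc1, Ppp1r11 and Gcdh were called with GW3965 and in no other H3K27ac list. The highest distal GW3965-only regions were near 9330182L06Rik (16.5), Fbrs (12.4), Vmn1r15 (12.0), Cct2 (12.0), Ggct, Gm19705, Lrmp, Trim7, Arid1a and Ankrd28. No RXR peak lay within 1 kb of any of these 20. Over all GW3965-only regions this far from the control list, repeats kept, 4.71% had one.

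The highest control-only promoters were those of Agfg1 (21.6), Rundc3b (18.2), Kif3a (18.1), Ivd (17.9) and Ctnnb1 (16), the gene of beta-catenin. Trappc6a, Tmem191c, Slc2a1, Igfbp3 and Tmem57 followed with scores down to 14.5. Of the 10, 5 were called with LG268 and 6 with RA. Ctnnb1 and Slc2a1, the glucose transporter gene, were called in control cells only. Among the 10 distal ones were those near Rps6ka1 (17.1), Prrt3 (16.1), Huwe1 (13.2), Xbp1 (12.9), Gm5069, Cyb5b, Ccdc132, Zfhx3 and Smarca5-ps.

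Among nuclear receptors, the gene of LXR beta, Nr1h2, had a promoter region with scores of 24.3 and 23.0 and a change of 3.45 points. Nr1h3, the LXR alpha gene, had no region within 100 kb in either list. The Rxra promoter scored 18.7 and 17.4 (4.27 points), while the Rxrb promoter scored 20.3 and 5.67 and was fallen (-55.0 points). Of 23 shared regions in this list 1 was risen (4.35%), at Thrb (48.4 points), and 2 fallen (8.70%), at Rxrb and Nr2c2. Over all shared regions the shares were 8.38% and 8.58%. Of 31 at coactivator, corepressor and acetylation genes 5 were risen and 5 fallen, 16.1% each, so this list too was above the share over all shared regions, in both directions. The Ep300 promoter scored 44.4 and 30.8 (-3.59 points) and that of the corepressor Ncor1 33.2 and 23.3 (-5.79 points). The RA target list had none of 14 risen and 1 fallen (7.14%), at Zfp703. Rarb, the classical RA target, scored 6.99 and 6.93 at its promoter, and 11.02 with RA.

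ES cell identity was read from the pluripotency lists. Regions were called near 17 of 20 core genes, among them Sox2, Nanog, Sall4 and Lin28a, while Pou5f1 had only weak regions of 1 list each (scores of 2.93 to 4.10). Of 27 shared core regions 2 were risen (7.41%) and 1 fallen (3.70%), with a median change of 9.36 points. A Sox2 region 14035 bp downstream of the start scored 5.65 and 12.2 and rose by 46.3 points, while the Sox2 start region at 923 bp changed by 0.32 and the Nanog region at -4654 bp by 2.31. In the naive list, Tbx3 was risen (6.79 and 13.6, 43.5 points) and Klf4, Tcl1 and Socs3 were fallen among 18 shared regions. These shares were 5.56% and 16.7%, against 8.38% and 8.58% over all shared regions. Of 16 fibroblast markers 12 had no region within 100 kb, among them Col1a1, Col1a2, Col3a1, Thy1 and Postn. The other 4 had 5 shared regions, none risen or fallen, and 4 control-only regions. None of the 7 endoderm, 2 mesoderm, 4 trophoblast and 12 neural shared regions was risen, a small number to set beside the 8.38% over all shared regions, and those of Sox17 and Irx3 were fallen. GW3965-only regions lay at 6 of 12 endoderm, 1 of 6 mesoderm, 2 of 4 trophoblast and 6 of 16 neural genes with a region. Over all genes with a region the share was 17.3%. Control-only regions lay at 7, 5, 1 and 8 of these genes in the same order, against 35.8% of all genes.

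The housekeeping list gives a measure of the spread. Of its 38 shared regions 3 were risen (7.89%) and 2 fallen (5.26%), with extremes of 37.2 points at Tubb5 and -70.9 at Ywhaz. With peaks within 1 kb joined, the Ywhaz change came to -0.51.

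**Figure D5:**
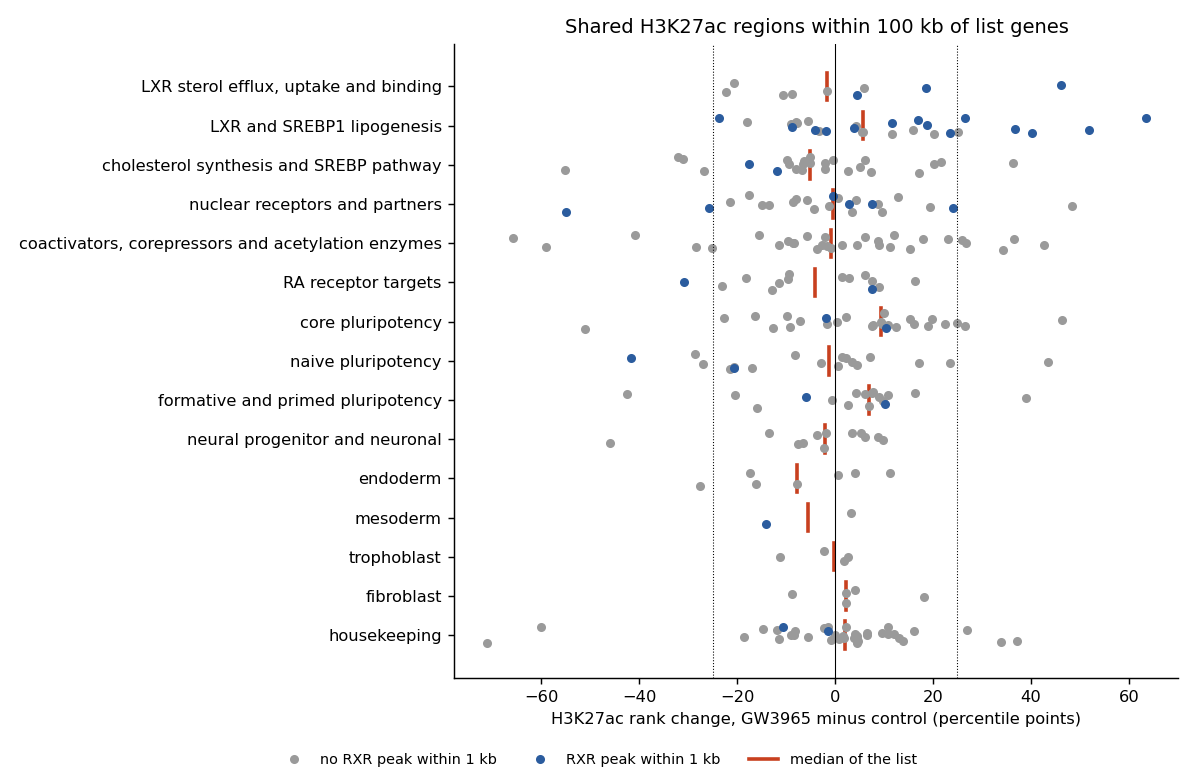
Rank change of H3K27ac score, GW3965 minus control in percentile points (x axis), of every shared region within 100 kb of a gene of the 15 lists (y axis). Blue points have an RXR peak within 1 kb, red bars are medians and dotted lines mark 25 points. In the lipogenesis list 6 of 27 points lie right of 25 and none left of -25, while the housekeeping list has 3 and 2.

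Promoter windows gave a further description. A direct repeat of AGGTCA with 4 bases between its copies, the general LXR and RXR form, was searched on both strands with up to 2 mismatches. It was present in 3.02% of all 32851 windows, in 1.92% of the 7967 that overlapped shared regions, in 3.56% of the 365 that overlapped GW3965-only regions and in 1.98% of the 1163 that overlapped control-only regions. It was in 2.80% of windows at risen and 2.16% at fallen regions. The printed elements of Abca1, Fasn and Srebf1 depart from this form by 3 bases each and so are not among these matches. The median GC content was 62.3% at shared, 60.7% at GW3965-only and 63.0% at control-only windows, against 52.7% over all, and the median number of CpG pairs was 23, 19, 22 and 7 in that order.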

How the data were processed

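The authors deposited 1 annotated peak list per library, which gives for each peak its position, a score, the distance to the nearest start site, the nearest gene and a location class. Coordinates are mm10 per the file headers. BWA (0.6.0), HOMER (4.2) and MACS2 (2.0.10) appear in the submitters' processing notes, which do not say which of them made the score. The deposited score has no stated scale, so it was used within a list or as a rank, and read totals, which would give depth, were not given in the sources used here. As a check of the build, 8892 of 9018 GW3965 promoter peaks (98.6%) with a matching symbol lay within 1 kb of that symbol's RefSeq promoter of GRCm38.p6.

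Peaks were merged with Python 3.11.15 and pandas 2.3.3, and the merging was tested on simulated lists. A region took the highest score of its peaks per list. Promoter regions lay within 1 kb of a start site, and genes were the deposited nearest gene within 100 kb. Repeats are simple repeats, satellites, low complexity and rRNA elements and the mitochondrial genome, and held 0.59% of control and 0.73% of GW3965 peaks. Named regions are the 10 highest of each single-list class (outside repeats and over 1 kb from the other list), the 10 greatest rises and falls of shared regions, each for promoter and distal regions apart, and members of 15 lists of 16 to 25 genes. Nr1h2, Rxra, Cpt1a and the other members shown were picked from these sets. The comparisons, members and lists were chosen with earlier results of these data known, RXR sites at LXR targets included. Alternatives cut the lists to equal length or to their upper parts, changed the overlap, promoter and gene windows, dropped repeats or summed scores. Results at some genes of these sets are not reported here.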

Additional observations from a re-analysis of the deposited data

How the results depend on the processing

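Depth is unknown and each condition had 1 library, so none of these values has a replicate check. No paired analysis was possible because each condition had 1 library. Joining peaks within 1 kb and summing their scores was chosen after seeing the data.

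With both lists cut to equal length, the share of control peaks found with GW3965 was 76.8% and the share of GW3965 peaks found in the control 77.8%. Promoter shares were 77.5% (called in both), 31.4% (GW3965 only) and 45.7% (control only). LG268 or RA cells had 29.2% and 33.1% of the single-list regions, RXR peaks lay at 1.38% of control-only regions, and the sterol and lipid lists had 10 control-only regions in place of 18. With the upper 50% of each list, the overlap shares were 73.3% and 88.6%, the promoter shares 88.8%, 64.1% and 72.6%, and the shares found with LG268 or RA 76.1% and 76.7%, where many single-list regions have a weaker peak of the other list by construction. With 50% reciprocal overlap the overlap shares were 58.3% and 70.3%. With peaks within 1 kb counted as shared they were 78.6% and 89.1%, the promoter shares 72.8%, 16.8% and 28.2%, the RXR shares 4.40% (both), 4.71% (GW3965 only) and 3.36% (control only), and 29.2% of control-only regions were found with LG268 or RA. Without repeats the RXR shares were 2.09% (both), 1.26% (GW3965 only) and 0.93% (control only), from 2.48%, 1.83% and 1.09%. With promoters within 5 kb, promoter shares were 79.3%, 36.3% and 45.9%. With genes within 10 kb, the sterol and lipid lists had 14 GW3965-only, 9 control-only and 5 risen regions, from 23, 18 and 8. With peaks joined, 6.74% of shared regions were risen and 6.61% fallen. The rank changes at Abca1, Scd1, Scd3, Srebf1 and Cpt1a stayed over 25 points under each of the 4 alternatives run for them, with lowest values of 31.1 at Scd1 (summed score), 28.5 at Srebf1 and 28.6 at Cpt1a (both with peaks joined). With peaks joined the Fasn region over the element went from -8.69 to 2.501 and the intron 1 region from 18.7 to 2.501. The Scd2 region at -8838 bp passed 25 with equal lists (25.1) and with peaks joined (47.2).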
